A study of Mus musculus with 6 samples.

Results

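SR protein genes encode splicing factors with RNA recognition motifs and a tail rich in arginine and serine. The set described here was fixed by gene symbol, as Srsf1, Srsf2, Srsf3, Srsf4, Srsf5, Srsf6, Srsf7, Srsf9, Srsf10 and Srsf11. Of these 10 genes, 9 were among the 15705 genes with a splicing deficiency (Sd) score, and Srsf2 was not analysed here. Mouse cortical neurons were isolated from C57BL/6 embryos at embryonic day 18, grown for 7 days in culture and exposed to lentivirus for 3 days. Both groups received the FCK1.3GW vector, which drives its insert from a short CaMKII promoter active in excitatory neurons. The 3 control libraries carried EGFP and the 3 N40K libraries carried N40K, the N-terminal fragment of the U1 snRNP protein U1-70K, in place of EGFP. The series asks how U1 snRNP dysfunction in Alzheimer's disease affects neurons. Whether the 3 replicates of a group came from separate cultures is not in the labels. The p-values therefore reflect the spread among these libraries alone, part or all of which may be technical. In bulk RNA, a change in few cells and a smaller change in every cell cannot be told apart.

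SR proteins bind exonic enhancers and help the U1 snRNP settle on the start of introns, which ties them to the complex that N40K is taken from. Their own transcripts are known for poison exons and kept introns. A poison exon brings in an early stop codon, so that the transcript is open to nonsense-mediated decay, and SR proteins use this route to limit their own output. The Sd score is a ratio deposited per gene and library, read here as unspliced against spliced RNA of the gene. On that reading splicing is less complete where the score is higher, and more unspliced RNA or less spliced RNA can give the same value.

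The 9 scored genes lie, in the GRCm38 build, on chromosomes 11 (Srsf1), 17 (Srsf3 and Srsf7), 4 (Srsf4 and Srsf10), 12 (Srsf5), 2 (Srsf6), 5 (Srsf9) and 3 (Srsf11). Most of them had annotated transcripts of both kinds. In the GENCODE M21 annotation, 8 of the 9 genes had a transcript marked for nonsense-mediated decay and 7 had a transcript marked for a kept intron. Among the 14911 scored genes with this annotation the shares were 26.6% and 54.4%. Srsf10 had neither kind, and Srsf9 had no transcript marked for a kept intron. A new exon that carries the early stop was annotated in 6 genes. The starts of these exons up to the stop codon are shown because they carry the feature these genes are known for, with the stop codon in capitals.
Srsf3 (456 bases, intron 3): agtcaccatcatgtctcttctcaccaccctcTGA
Srsf4 (207 bases, intron 1): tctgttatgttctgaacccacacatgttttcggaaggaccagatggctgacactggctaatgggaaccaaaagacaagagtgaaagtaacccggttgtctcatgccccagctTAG
Srsf6 (268 bases, intron 2): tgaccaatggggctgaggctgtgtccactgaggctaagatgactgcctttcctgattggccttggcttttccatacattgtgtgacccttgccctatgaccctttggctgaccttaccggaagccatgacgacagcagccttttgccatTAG
Srsf7 (460 bases, intron 3): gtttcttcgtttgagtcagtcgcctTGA
Srsf9 (358 bases, intron 1): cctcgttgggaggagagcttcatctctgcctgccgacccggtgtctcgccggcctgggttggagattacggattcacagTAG
Srsf11 (109 bases, intron 3): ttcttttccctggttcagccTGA
The stop came within 23 bases of the exon's start in Srsf11, 28 in Srsf7 and 34 in Srsf3, and only after 152 bases in Srsf6. Each exon lies inside an intron of the gene's main transcript, so the Sd score may count its reads as intron or as exon, and the sources used here do not say which.

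In Srsf3, Srsf6 and Srsf7 the whole intron around the poison exon is also kept in an annotated transcript, so its 5′ splice site can be read next to the end of U1 RNA that pairs with it. The sites are shown as the last 3 bases of the exon and the first 6 of the intron, with the first pair of intron bases in capitals, and U1 with its pairing bases in capitals.
U1 RNA (Rnu1b1, bases 1 to 11, as DNA): atACTTACCTG
Srsf3 intron 3: cagGTactt
Srsf6 intron 2: gcaGTgagt
Srsf7 intron 3: cagGTattt
Full pairing with U1 would need caggtaagt. The Srsf3 and Srsf7 sites matched it at 7 of 9 bases and the Srsf6 site at 5. Of 6473 such sites in scored genes, 27.1% had 7 matches and 21.4% had 5. These counts describe the letters, and the scores are given per gene and not per intron.

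The SR protein genes moved in both directions in N40K neurons, and few passed the test. Srsf11 rose, Srsf9 fell and the other 7 did not pass (limma, Benjamini-Hochberg adjusted p under 0.05 over all genes). Over all 15705 genes, 21.5% rose and 4.11% fell, so the 1 rise (11.1% of the 9 genes) is no excess over the table, and 1 fall is too few to set apart from it. With a library left out, 1613 (without control replicate 2) to 3729 (without N40K replicate 1) of all genes rose, and 303 (without control replicate 1) to 486 fell. At an unadjusted p under 0.05 the family had 1 higher gene, where the table had 31.2%, and 3 lower genes, where the table had 7.32%. The mean score was higher with N40K in 4 SR protein genes and lower in 5. The median log2 change was -0.02 over the 9 genes and 0.06 over all genes. In 1 SR protein gene, Srsf11, every N40K score was above every control score, where 33.6% of all genes did so. In 3 they were all below, Srsf7, Srsf9 and Srsf10, where 8.67% of all genes did so. All 9 genes passed the filter on low values, which removed no gene of the table.

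**Figure D1:**
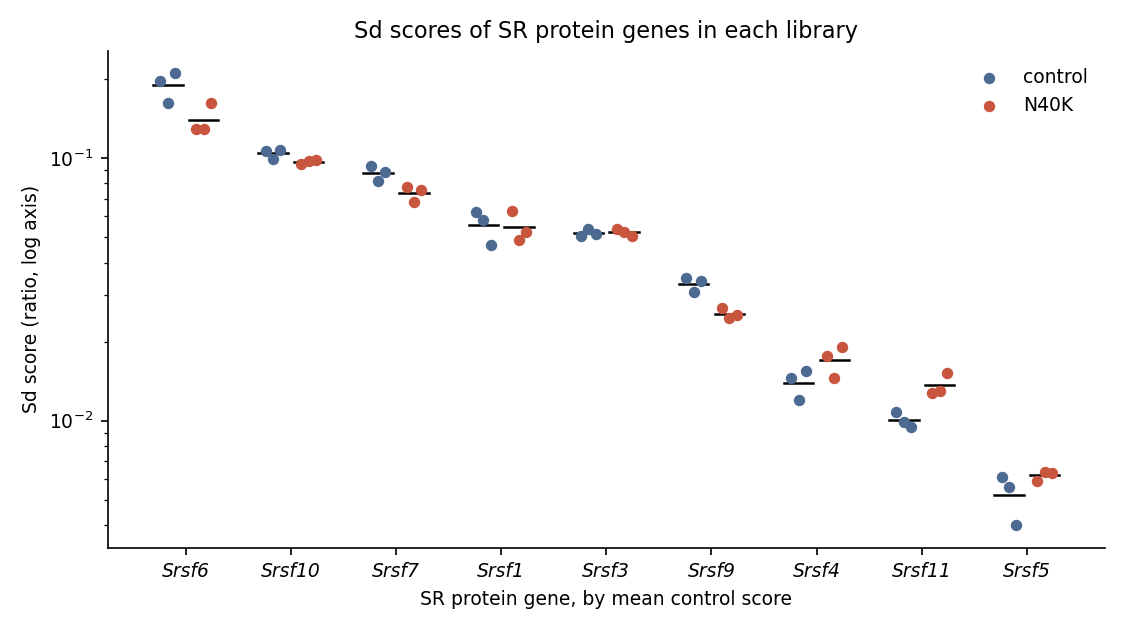
Sd score (ratio, log axis) of each SR protein gene in the 3 control and 3 N40K libraries, with bars at the group means and genes ordered by mean control score. Srsf9 sits lower in all 3 N40K libraries and Srsf11 higher, while the points of Srsf1 and Srsf3 are mixed.

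Srsf9 had the lowest p-value of the family. It encodes a small SR protein with 2 RNA recognition motifs and a short arginine-serine tail, and is the closest relative of Srsf1. Its scores were 0.0349, 0.0309 and 0.034 in control neurons and 0.0268, 0.0246 and 0.0253 in N40K neurons. The groups did not overlap, and the lowest control score stood above the highest N40K score. The score fell from 0.0333 ± 0.0021 to 0.0256 ± 0.00112 (mean ± SD, n = 3), a ratio of 0.769, with a log2 change of score + 0.01 of -0.28 ± 0.07 (SE) and a limma adjusted p of 0.0297. The call ended when any library other than N40K replicate 1 was left out, with adjusted p between 0.0508 and 0.0969.

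Srsf1, the founding member of the family, showed no comparable difference. It promotes 5′ splice site choice by U1 and also acts in mRNA export and translation. Its scores were 0.0622, 0.0583 and 0.0468 in control neurons and 0.0629, 0.0487 and 0.0523 in N40K neurons, so that the groups were mixed. The ratio of means was 0.98 and the 95% interval of the log2 change reached from -0.34 to 0.30 (limma adjusted p = 0.92). That interval holds both the Srsf9 value and a rise of like size, so equal behaviour is not shown. By annotation the gene Gm11508 overlaps Srsf1 on the opposite strand.

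Within a library, the score of Srsf1 over that of Srsf9 was 1.78, 1.89 and 1.38 in control neurons. It was 2.35, 1.98 and 2.07 in N40K neurons. On the log2 scale this ratio was higher by 0.35 with N40K, and by 0.26 on the tested scale of score + 0.01, without overlap between the groups (exact permutation test, 2-sided, p = 0.1, the smallest that 20 assignments allow). A shift that a whole library shares largely cancels in such a ratio.

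Srsf3 and Srsf7 are the small SR proteins with 1 RNA recognition motif that link splicing to mRNA export through Nxf1, and Srsf7 also holds a zinc knuckle. Srsf3 scored 0.0503, 0.0535 and 0.0513 in control neurons and 0.0536, 0.0525 and 0.0503 in N40K neurons. The groups were mixed, and the values varied little, with a coefficient of variation of 3.17% in control and 3.22% in N40K neurons. Its 95% interval on the log2 scale reached from -0.15 to 0.17 (limma adjusted p = 0.931). By sequence, 5 other annotated genes match at least 200 bases of the Srsf3 transcript at 90% identity or more, 4 of them processed pseudogenes, so its score is uncertain where reads were shared.

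Srsf7 scored 0.0929, 0.0819 and 0.0886 in control neurons and 0.0779, 0.0681 and 0.0756 in N40K neurons. All N40K values lay below all control values, with a ratio of means of 0.841. Srsf7 had a log2 change of -0.22 ± 0.08 (SE) and did not pass (limma adjusted p = 0.111). It passed as a fall with library medians set equal (0.0318) and with quantile normalization (0.0299), but not with the median deviation of a library's genes set to 0 (0.0558). The processed pseudogene Gm18821 matches 713 bases of the Srsf7 transcript at 92.4% identity, so its score too is uncertain where reads were shared. The ratio of Srsf3 to Srsf7 was 0.541, 0.653 and 0.579 in control libraries and 0.688, 0.771 and 0.665 in N40K libraries. The log2 ratio of this pair was higher by 0.26 with N40K, and by 0.23 on the scale of score + 0.01 (exact permutation p = 0.1 on each).

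Srsf4, Srsf5 and Srsf6 form the branch with 2 RNA recognition motifs and a long arginine-serine tail, and are also targets of their own poison exons or kept introns. Srsf6 had the highest score of the family. It was 0.1957, 0.1621 and 0.2101 in control neurons and 0.1293, 0.1286 and 0.1621 in N40K neurons. The highest N40K score equalled the lowest control score, so the groups touched. The ratio of means was 0.74, the lowest of the family, and Srsf6 had a log2 change of -0.41 ± 0.14 (SE). The spread was wide and the gene did not pass (limma adjusted p = 0.083). Srsf6 passed as a fall in each of the scaled fits, at 0.026 with library medians set equal, 0.0352 with quantile normalization and 0.0462 with the median deviation of a library's genes set to 0.

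Srsf4 scored 0.0145, 0.012 and 0.0154 in control neurons and 0.0177, 0.0146 and 0.019 in N40K neurons. The ratio of means was 1.22, the groups overlapped and it did not pass (limma adjusted p = 0.211, 95% interval on the log2 scale from -0.04 to 0.40). The annotation has A930004J17Rik overlap it on its own strand and Gm12992 on the opposite strand. A transcript of Gm12992, a gene with its own score, matches 1447 bases of Srsf4 at 100% identity. That match may be the overlap itself and not a second copy. Srsf5 scored 0.0061, 0.0056 and 0.004 in control neurons and 0.0059, 0.0064 and 0.0063 in N40K neurons. Its groups overlapped, with a ratio of means of 1.18 and control replicate 3 the lowest library (limma adjusted p = 0.295, 95% interval from -0.05 to 0.23). The sign of its log2 change turned with library medians set equal (-0.04) and with quantile normalization (-0.01). The Srsf5 transcript is matched at 99% identity over 810 bases by the processed pseudogene Gm12966.

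In this branch the pairs compared both held Srsf6, and their score ratios lay apart between control and N40K libraries. Srsf4 and Srsf5 were not compared with each other. The ratio of Srsf4 to Srsf6 was 0.0741, 0.074 and 0.0733 in control libraries and 0.137, 0.114 and 0.117 in N40K libraries. The log2 ratio was higher by 0.73 with N40K, and by 0.59 on the scale of score + 0.01, the largest of the 4 pairs compared on each scale. The Srsf5 to Srsf6 ratio was 0.0312, 0.0345 and 0.019 in control libraries and 0.0456, 0.0498 and 0.0389 in N40K libraries, a log2 ratio higher by 0.70, or by 0.50 on the scale of score + 0.01. Both pairs gave an exact permutation p of 0.1, and they share the Srsf6 values. All 4 pairs separated the groups, and the p adjusted over them (Benjamini-Hochberg) was 0.1 for each. How often other pairs of genes do so was not counted. Taken singly, 33.6% of all genes had every N40K score above every control score and 8.67% had every one below. With a pseudocount of 0.1 the Srsf1 and Srsf9 pair overlapped between the groups (exact p = 0.4).

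**Figure D2:**
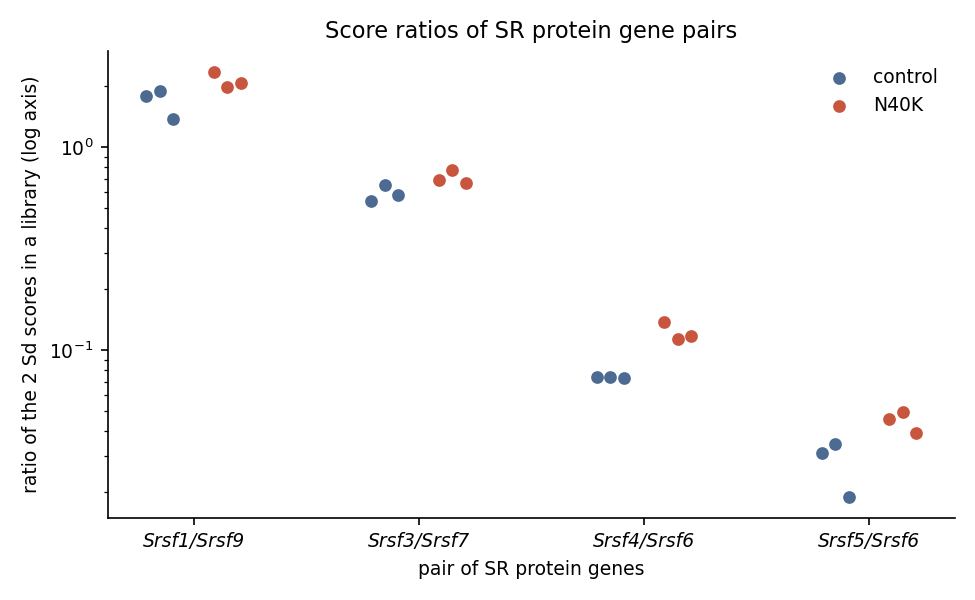
Ratio of the Sd scores of 2 SR protein genes within each library (log axis), for 4 pairs, in 3 control and 3 N40K libraries. In each pair the N40K points lie above the control points, and the Srsf4 to Srsf6 pair shows the widest gap, from at most 0.0741 in control to at least 0.114 with N40K.

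Srsf10 and Srsf11 stand at the edge of the family. Srsf10 is a general repressor once its tail loses its phosphates, as after heat shock, and an activator otherwise. It scored 0.1066, 0.0995 and 0.1075 in control neurons and 0.0945, 0.0976 and 0.0979 in N40K neurons. The N40K values were all lower, by a small margin, with a ratio of means of 0.925. The gene did not pass (limma adjusted p = 0.344), and it was also short of the threshold after centring on the library median (0.065). Srsf10 has 2 processed pseudogenes that match its transcript at 97.3% and 97.8% identity.

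Srsf11 encodes a larger SR protein that favours inclusion of small exons in neurons. Its scores were 0.0108, 0.0099 and 0.0095 in control neurons and 0.0128, 0.013 and 0.0152 in N40K neurons. All N40K values lay above all control values. The score rose from 0.0101 ± 0.000666 to 0.0137 ± 0.00133 (mean ± SD, n = 3), a ratio of 1.36, with a log2 change of 0.24 ± 0.06 (SE) and a limma adjusted p of 0.0341. On the same scale 78.1% of all genes had a change at or below that of Srsf11. The call ended when any library other than N40K replicate 1 was left out, with adjusted p between 0.0651 and 0.11. It also ended after each of the scalings, at 0.135 for centring on the library median, 0.145 for quantile normalization and 0.0544 for centring on the median deviation. With 12 introns in its main transcript and 11 transcripts that the annotation marks for a kept intron, it had the most of each in the family. Gm43362 overlaps it on the same strand.

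**Figure D3:**
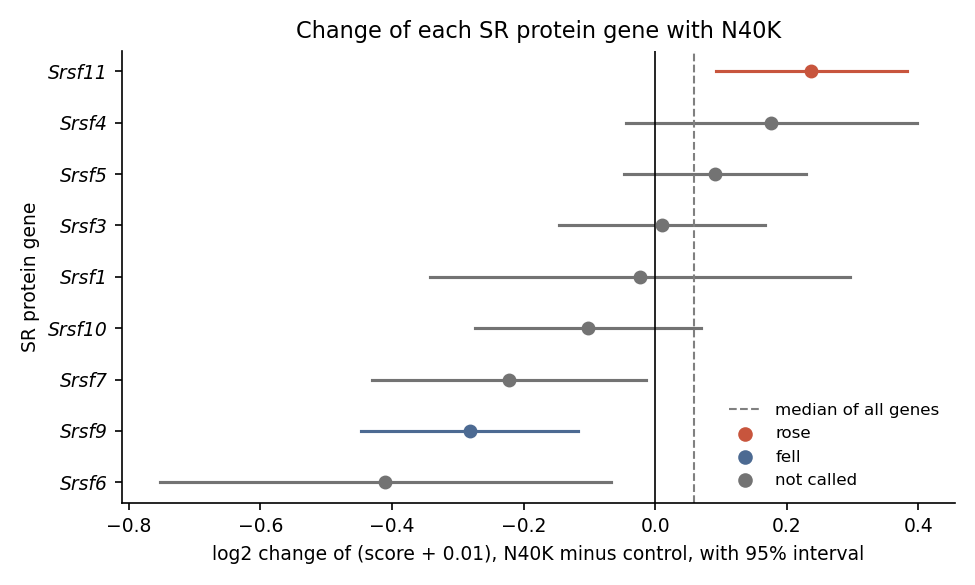
Change of log2(score + 0.01) of each SR protein gene, N40K minus control, with its 95% interval from limma, beside the median of all genes (dashed line, 0.06). Srsf9 is marked as a fall and Srsf11 as a rise, and the points run from -0.41 for Srsf6 to 0.24 for Srsf11.

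The order of the genes by score was the same in both groups. It ran from Srsf6 through Srsf10, Srsf7, Srsf1, Srsf3, Srsf9, Srsf4 and Srsf11 to Srsf5. Neighbours in this order did not overlap in control neurons except Srsf1 and Srsf3. In N40K neurons Srsf4 and Srsf11 overlapped as well. The genes from Srsf6 to Srsf9 in this order had a control score above 0.03, which placed them between the 68.7th percentile of all genes for Srsf9 and the 90th for Srsf6. These are scores as deposited, and whether they depend on gene length is not stated in the sources used here. The 9 genes had a median length of 7228 bp, against 25453 bp over the annotated scored genes.

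The members with lower N40K means had high scores, and the members with the lowest scores, Srsf4, Srsf5 and Srsf11, had higher N40K means. Srsf3, with a score near that of Srsf1, was an exception with a ratio of 1.01. Across the table, the share of genes that rose was smaller and the share that fell larger at higher control scores. Among genes with a control score from 0.005 to 0.02, where those 3 members lie, 23.7% rose and 3.63% fell. From 0.02 to 0.05, where Srsf9 lies, 13.8% rose and 4.34% fell. Between 0.05 and 0.1, where Srsf1, Srsf3 and Srsf7 lie, 11.3% rose and 5.6% fell, and between 0.1 and 0.25, where Srsf6 and Srsf10 lie, 7.27% rose and 6.95% fell. The median log2 change stayed positive in each of these ranges, from 0.0923 in the lowest to 0.0076 in the highest. These medians are of scores as deposited, in which library medians were higher with N40K by 0.13 (log2). The ranges were set by the control mean, which also enters the change. The part of score level in the members' directions was not tested.

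**Figure D4:**
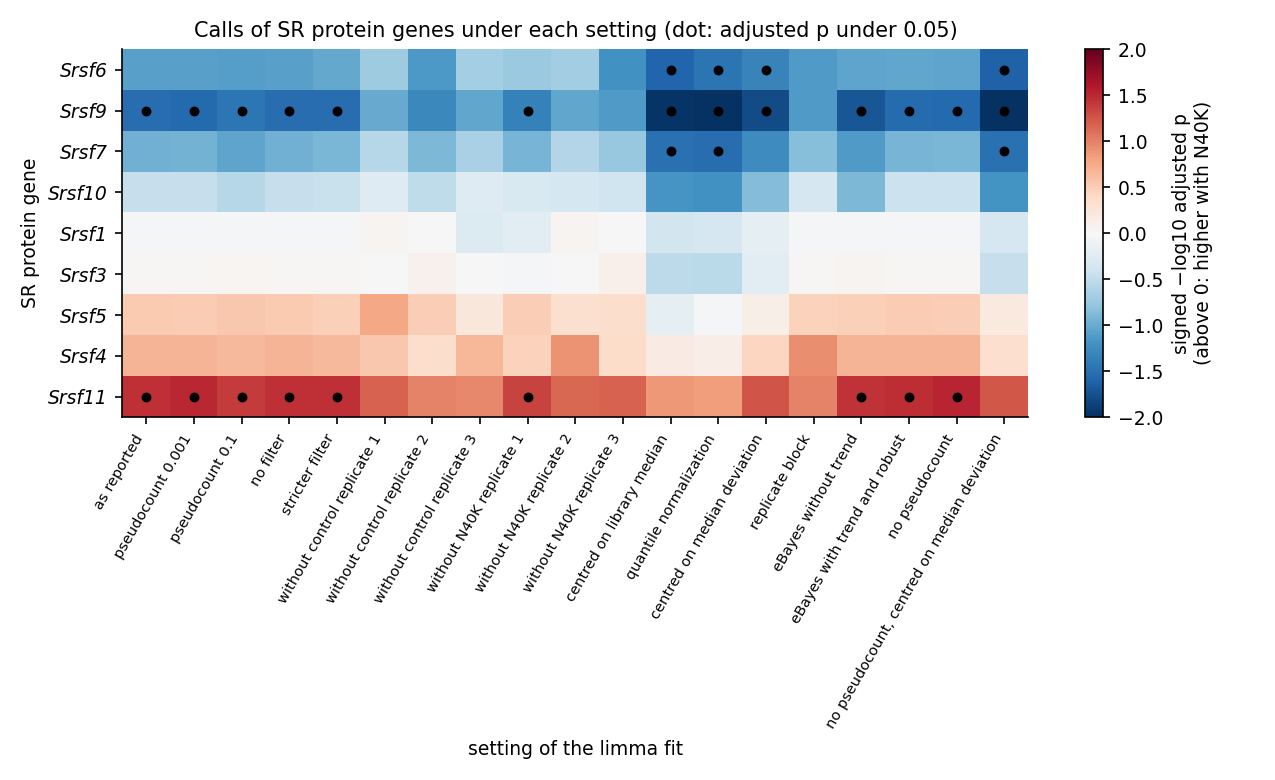
Signed −log10 of the limma adjusted p of each SR protein gene (rows) under each setting of the fit (columns), with a dot where the adjusted p is under 0.05. Srsf9 keeps a dot under every scaling and loses it without most single libraries, Srsf11 loses it under scaling, Srsf6 gains one under every scaling, and Srsf7 gains one under every scaling but centring on the median deviation with a pseudocount.

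The scale of the libraries bore on these calls. Control libraries had a median score of 0.0132 ± 0.000458 and N40K libraries one of 0.0154 ± 0.000854 (SD, n = 3), and setting these medians equal removed a shift of 0.13 (log2). After that centring 0 SR protein genes rose and 3 fell, Srsf6, Srsf7 and Srsf9, while 1531 of all genes rose and 2883 fell. The labelled cell type could not be checked from the scores, since the score is not an expression level. Having a score did not set neuron markers apart from astrocyte markers either, and part of each other list also had a score. All 13 neuron markers had one, as did all 8 astrocyte markers, 6 of 8 oligodendrocyte lineage markers, 4 of 8 microglia markers and 3 of 6 endothelial and mural markers. The scores of 5 markers changed, named after their values were seen. Slc17a6 of neurons (ratio 1.57, limma adjusted p = 0.0139), Slc1a2 of astrocytes (1.19, 0.0422) and Csf1r and Itgam of microglia (2.76, 0.0131 and 2.71, 0.0174) rose, and Mog of oligodendrocytes fell (0.729, 0.0195). By list, 7.69% of neuron, 12.5% of astrocyte and 50% of the 4 scored microglia markers rose, against 21.5% of all genes. Among scored oligodendrocyte lineage markers 16.7% fell, against 4.11% of all genes. The remaining markers did not pass, and some went the other way within a list, as P2ry12 of microglia (ratio 0.828) and Gfap of astrocytes (0.886). The part of these markers in the scores of the SR protein genes was not tested.

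Snrnp70, the gene of U1-70K, scored 0.0215, 0.021 and 0.0223 in control neurons and 0.0242, 0.0224 and 0.0234 in N40K neurons, which did not overlap and did not pass (limma adjusted p = 0.376). Whether reads from the N40K insert were counted for this gene is not stated.

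The partners of the SR proteins were read from 4 gene lists, to be set against the 21.5% of all genes that rose and the 4.11% that fell. These shares depend on score level, and among genes with a control score below 0.005, 36.4% rose and 2.08% fell. Of 25 SR-related and Tra2 genes, 9 rose (36%) and 1 fell (4%) with scores as deposited, and 6 rose and 4 fell with library medians set equal. With a library left out, 4 (without control replicate 1) to 11 of them rose. Scaf11, an SR-related spliceosome factor, rose from 0.00277 ± 0.000252 to 0.007 ± 0.0005 (limma adjusted p = 0.00183). Scaf8, which binds the tail of RNA polymerase II, rose 2.34-fold (0.00392) and Srek1, a regulatory SR-related protein, rose 1.89-fold (0.00478). The fall was in Tra2a, an SR-like splicing activator, named after its values were seen, from 0.0729 ± 0.00588 to 0.0406 ± 0.00324 (0.00518).

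Of 15 genes for kinases, phosphatases, import and export of SR proteins, 5 rose (33.3%) and 0 fell, but 1 rose and 1 fell after centring on the library median. Only 2 rose without control replicate 2 or 3 or N40K replicate 2, and 3 without N40K replicate 3. None of the Clk genes, kinases that act on SR proteins in the nucleus, passed, and Clk1, known for its own kept introns, had a ratio of 1.03. Prpf4b, a kinase of the spliceosome, rose 2.29-fold (limma adjusted p = 0.0013). Ppp1cb, a catalytic subunit of protein phosphatase 1, rose 2.15-fold (0.00269), a call that ended after centring on the library median (0.49). Tnpo3, the import receptor of SR proteins, rose 1.59-fold (0.018), but its call ended without control replicate 2 or 3 or N40K replicate 2 or 3 (highest adjusted p = 0.0639), with eBayes without trend (0.0542) and under each scaling of the scores + 0.01 (highest 0.893), and its log2 change turned to -0.01 after centring on the library median.

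Of 20 hnRNP genes, whose products often oppose SR proteins, 7 rose (35%) and 0 fell, and after centring on the library median 2 rose and 1 fell. Leaving out control replicate 2 left 1 rise, control replicate 3 left 3, and each of the other libraries left 4. Hnrnpd rose 1.86-fold (limma adjusted p = 0.00478), Syncrip 1.6-fold (0.0124) and Hnrpll 1.41-fold (0.0138). The calls of Syncrip and Hnrpll ended without control replicate 2 (0.0506 and 0.0517), that of Hnrpll also without control replicate 3, and that of Syncrip with library medians set equal (0.103). Of 8 genes of nonsense-mediated decay, the pathway that removes poison exon transcripts, 2 rose (25%, near the share of all genes) and 0 fell, and after centring 0 rose and 1 fell. Leaving out any library other than N40K replicate 1 left 1 rise. Smg1, the kinase of Upf1, rose 1.3-fold (limma adjusted p = 0.0291), a call that ended under each scaling and when any library other than N40K replicate 1 was left out (highest adjusted p = 0.37). The lists are described by their counts, and no difference between them and the SR protein genes was tested.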

How the data were processed

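RNA was measured in 6 libraries, 3 per group, by paired sequencing of 100 cycles from poly(A) RNA with a stranded kit, per the labels' protocols. Per the submitters' processing notes, CASAVA, STAR, BWA and bedtools 2.16.1 were used with the build mm9, in roles not given. The Sd scores deposited by the authors behave as a linear ratio per gene and library. Formula, annotation and strand handling: not given in the sources used here. Read depth is unknown, so no interval that needs it is printed. Columns were assigned by name and 0 were left unused.

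The test was limma 3.58.1 (R 4.3.3) on log2(score + 0.01), the pseudocount being 0.01 (eBayes with trend, 2-sided, Benjamini-Hochberg over 15705 genes, threshold 0.05), after a filter of a value above 0 in at least 3 libraries. A fold change on this scale understates that of low scores, so ratios of mean scores are given. Pair differences used an exact permutation test. The named genes were all members, up to 3 called genes with the smallest p per list, and Snrnp70, of which 1 is not reported here. Members and lists were chosen with earlier results of these data known. The fit was tested on simulated data. Annotation and transcript sequences came from GENCODE M21 (94.9% of genes matched by identifier), which is on another build than mm9, so no coordinates are printed. Near copies were found with blastn 2.17.0.

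Alternatives were other pseudocounts (0.001, 0.1), dropping the filter, removing the 25% of genes with the lowest mean score, each library left out, 3 scalings, the replicate number as a block and other eBayes settings. Chosen after seeing the data was a fit of log2 scores with no pseudocount, with and without centring, for genes whose mean score reached 0.002.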

Additional observations from a re-analysis of the deposited data

How the results depend on the processing

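With each library left out in turn, 0 to 1 SR protein genes rose and 0 to 1 fell. No SR protein gene rose, against 1 as reported, after centring on the library median, quantile normalization, centring on the median deviation, that centring without a pseudocount, or under the replicate block (0 in each). The count of falls, 1 as reported, was 3 after centring on the library median, after quantile normalization and after centring without a pseudocount, 2 after centring on the median deviation, and 0 under the replicate block. Both counts were 1 under the other pseudocounts, filters and eBayes settings and without a pseudocount. No sign of pairing by replicate number was seen: over genes, the deviations of same-numbered libraries correlated with r of -0.0712, 0.0376 and -0.0201. These correlations cannot show whether same-numbered libraries shared a culture. With the replicate block the adjusted p of Srsf9 was 0.0724 and of Srsf11 0.103, so both calls ended, as did those of Hnrpll (0.0612), Tnpo3 (0.0744) and Smg1 (0.0847), and over all genes 1770 rose and 328 fell, against 3372 and 645.

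Some signs near 0 turned. Srsf1 ranged from -0.1258 to 0.04728 (log2) with a library left out, and Srsf3 from -0.006927 to 0.03151. Srsf3 was -0.1203 after centring on the library median, -0.1223 after quantile normalization, -0.0554 after centring on the median deviation and -0.139 after centring without a pseudocount. Srsf5 was -0.0392 and -0.00763 after centring on the library median and quantile normalization. Snrnp70 was -0.0535, -0.0627 and -0.0399 after centring on the library median, quantile normalization and centring without a pseudocount. Tnpo3 was -0.00537 after centring on the library median. The 4 pair differences kept their sign under every alternative run; with a library left out they ranged from 0.14 to 0.33 (Srsf1 and Srsf9), 0.18 to 0.30 (Srsf3 and Srsf7), 0.52 to 0.64 (Srsf4 and Srsf6) and 0.37 to 0.62 (Srsf5 and Srsf6). No depth is known, and 3 libraries per group limit the precision. The causes of these moves were not tested.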
